A study of Prunus avium with 27 samples.

Results

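The DORMANCY-ASSOCIATED MADS-box (DAM) genes described here are 6 of the 29449 gene models in the RNA tables, and they were chosen by identifier. They are PRUPE_ppa018667mg (DAM1), PRUPE_ppb017585mg (DAM2), PRUPE_ppa010758mg (DAM3), PRUPE_ppa011123mg (DAM4), PRUPE_ppa010822mg (DAM5) and PRUPE_ppa010714mg (DAM6). The identifiers are those of peach (Prunus persica) gene models, the tables pair them with no gene names, and the DAM names could not be checked in the sources used here. All 6 models were present, and all lay on scaffold 1 between positions 46335146 and 46398158, a stretch of 63.0 kb. At each of the 6 starts stood 1 of the 25635 regions for which H3K4me3 was tabulated. H3K4me3, the trimethylation of lysine 4 on histone H3, sits around the start sites of genes that are being transcribed.

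The samples were flower buds of the sweet cherry (Prunus avium) cultivar Burlat, grown in an orchard and taken from the same branches for both assays. Date 1 was 21 October 2014, date 2 was 5 December 2014 and date 3 was 27 January 2015, with intervals of 45 and 53 days. October and December buds are labelled dormant and January buds non-dormant, so the dormancy label of January and its calendar date cannot be told apart. Each date had 3 libraries of RNA and 2 of H3K4me3, those of H3K4me3 numbered 2 and 3. Nothing in the labels ties replicates to different trees, and the p-values therefore speak only of the spread among these samples, which may be technical. RNA is given in TPM, transcripts per 1000000, a unit that allows for gene length and keeps no sequencing depth. The number of genes at 1 TPM or more was 17105 to 18097. H3K4me3 is given as a normalised signal per region, from 14216613 to 28126160 recovered reads per library over all regions. Flower buds hold several tissues, and in such bulk samples fewer cells of a type and less RNA per cell cannot be told apart.

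DAM genes encode MADS-box transcription factors, proteins that bind DNA and switch other genes on or off, and are related to SVP (Short Vegetative Phase), a repressor of flowering in Arabidopsis. In peach they stand in a tandem row, and the evergrowing mutant, which lacks part of that row, does not stop growing or set terminal buds in winter. In peach buds DAM5 and DAM6 are known for RNA levels that fall during winter chilling, and DAM6 of Japanese apricot (Prunus mume) held back growth when expressed in other trees. The role of each single gene in sweet cherry is less settled, and each is described below on its own.

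In the tables the row ran from DAM1 to DAM6 towards lower positions, and the H3K4me3 windows put the start of each model at its higher coordinate, on the minus strand. DAM3, DAM4, DAM5 and DAM6 spanned 7117 to 8686 bp each and were separated by only 1407 to 1927 bp. DAM1 and DAM2 were annotated with 1177 and 959 bp. A gap of 7864 bp lay between these shorter models, and one of 16781 bp between DAM2 and DAM3. The tandem copies resemble each other, and how reads that match several copies were assigned is not stated in the labels or tables, so the split of reads among the 6 models is uncertain.

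DAM4 (scaffold 1, 46353151 to 46360953) was the most abundant DAM transcript in December and January, when it stood among the strongest transcripts of the bud, and the next after DAM5 in October. It had 245, 268 and 286 TPM in the October libraries, 820, 1253 and 902 TPM in December, and 840, 733 and 846 TPM in January. All December and January libraries lay above all October libraries, and the December and January libraries overlapped. By level DAM4 ranked 513 to 659 among all genes in October, 40 to 100 in December and 83 to 104 in January. Its December mean was 3.72 times its October mean, and its January mean 3.02 times. On the log2(TPM + 1) scale DAM4 rose by 1.87 (SE 0.14) in December against October, with an adjusted p of 1.62e-06 (limma, Benjamini-Hochberg over all genes tested), and by 1.59 (SE 0.14, adjusted p 4.35e-06) in January against October. January against December, the change was -0.28 with a 95% interval of -0.58 to 0.026 and an adjusted p of 0.147 (limma), which did not pass the threshold of 0.05. DAM4 was thus the only one of the 6 models with more RNA in the non-dormant January buds than in the dormant October buds.

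DAM5 (scaffold 1, 46344190 to 46351743), the next gene in the row, peaked in December. It had 293, 341 and 317 TPM in October, 645, 657 and 540 TPM in December, and 96.2, 81.7 and 132 TPM in January. No library of one date overlapped another date. On the log2(TPM + 1) scale DAM5 rose by 0.95 (SE 0.15, adjusted p 0.00032, limma) in December against October and then changed by -2.58 (SE 0.15, adjusted p 2.05e-06) in January against December, a 5.95-fold fall of the mean. The December to January change of DAM5 was among the strongest falls of the table, since 0.256% of tested genes changed by as much or further downwards. January levels were also below October, with a change of -1.63 (SE 0.15, adjusted p 6.80e-06).

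DAM6 (scaffold 1, 46335146 to 46342262), at the end of the row, fell in both intervals. Its libraries had 151, 165 and 144 TPM in October, 94.5, 77.8 and 72.5 TPM in December, and 13.05, 14.8 and 16.2 TPM in January, with no overlap between dates. On the log2(TPM + 1) scale DAM6 changed by -0.91 (SE 0.11, adjusted p 5.49e-05, limma) in December against October. In January against December DAM6 changed by -2.39 (SE 0.11, adjusted p 6.92e-07), which took the mean to 14.7 ± 1.57 TPM in January, against 81.6 ± 11.5 TPM in December (SD, n = 3 each). Over the whole interval the change of -3.30 (SE 0.11, adjusted p 8.85e-09) was the largest fall among the 6 models on the log2(TPM + 1) scale, with a 10.5-fold lower mean in January. With a pseudocount of 0.1 TPM in place of 1, the faint DAM2, which was listed at 0 TPM in 2 January libraries, had the larger change (-4.69, against -3.38 for DAM6).

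DAM3 (scaffold 1, 46362692 to 46371377) followed the same course at a lower level. It had 46.7, 55.9 and 48.5 TPM in October, 23.3, 19.8 and 26.9 TPM in December, and 7.28, 8.81 and 7.85 TPM in January, again without overlap. DAM3 changed by -1.09 (SE 0.13, adjusted p 5.20e-05, limma) in December against October and by -1.43 (SE 0.13, adjusted p 3.14e-05) in January against December, on the log2(TPM + 1) scale.

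DAM1 (scaffold 1, 46396982 to 46398158) fell early and showed no further change that passed the test. It had 61.5, 70.9 and 75.7 TPM in October, 24.8, 28.5 and 19.9 TPM in December, and 15.7, 25.0 and 23.5 TPM in January. The October libraries lay above all others, whereas December and January overlapped. DAM1 changed by -1.48 (SE 0.18, adjusted p 5.02e-05, limma) in December against October. In January against December the change was -0.19 on the log2(TPM + 1) scale, with a 95% interval of -0.59 to 0.20 and an adjusted p of 0.435.

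DAM2 (scaffold 1, 46388159 to 46389117) was the faintest member. It had 4.16, 7.24 and 7.52 TPM in October, 0.602, 1.44 and 0.942 TPM in December, and was listed at 0, 1.28 and 0 TPM in January. Only the October libraries stood apart. DAM2 changed by -1.86 (SE 0.35, adjusted p 0.000992, limma) in December against October and by -0.58 (95% interval -1.35 to 0.19, adjusted p 0.23) in January against December. It reached the limit of 1 TPM in all 3 October libraries but in only 2 of the later ones. DAM2 thus passed the filter on low values only through October, the date at which it was high. Its falls from October are therefore not independent of the filter. With no filter on low values the adjusted p in December against October was 0.00188 (limma).

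**Figure D1:**
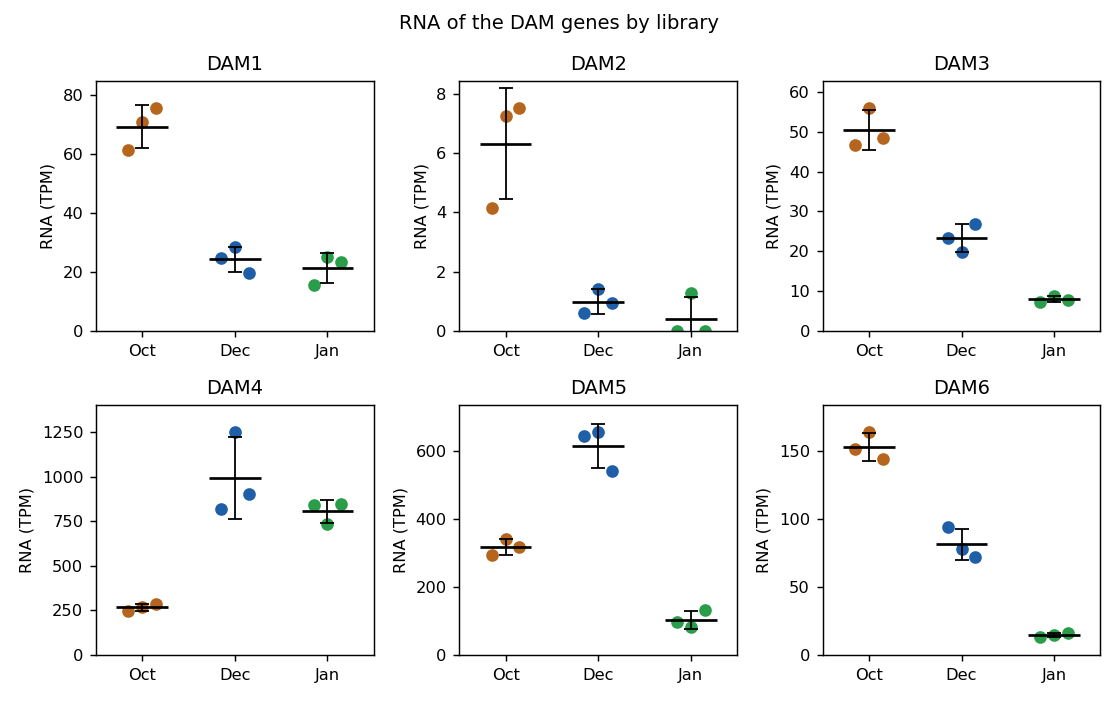
RNA level (TPM, vertical axis from 0, scaled per gene) of each DAM gene in each library, for October, December and January. Points are libraries, bars the mean and SD of 3 libraries. DAM4 stayed at 733 TPM or more from December on, DAM5 peaked in December, and the other 4 genes were highest in October.

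All 6 models passed the filter on low values. DAM2 did so only through October, and it is among those counted below as lower than October. In December against October, 2 of them were called higher and 4 lower. Of the 18384 tested genes 60.5% were called, 28.9% higher and 31.6% lower. The median log2 change of the 6 was -0.998, against -0.029 over all tested genes. In January against December 3 models (DAM3, DAM5 and DAM6) were called lower and 0 higher, where 32.9% of all genes were called, 14.5% lower and 18.5% higher. Unadjusted p-values under 0.05 in limma, the one tool run on RNA, were obtained for the same 3 models in that comparison. Across all 18384 tested genes there were 8024 such p-values. The median change of the 6 was -1.004, against 0.025 over all tested genes. In January against October, where 61.1% of all genes were called, 1 model was higher (31.7% of all genes) and 5 were lower (29.4% of all genes). The median was -2.05, against 0.030 over all tested genes. With calls this frequent among all genes, a call alone says little about a DAM gene. By size, DAM4 lay at percentile 99.03 of all December against October changes, and DAM5 and DAM6 at percentiles 0.256 and 0.315 of all January against December changes. These 3 comparisons share libraries and are not independent of each other.

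The order of the 6 genes by level changed with the season. In October DAM5 had the highest level, followed by DAM4, DAM6, DAM1, DAM3 and DAM2, and no 2 neighbours in this order overlapped between libraries. In December DAM4 came before DAM5, then DAM6, and DAM1 and DAM3 behind them overlapped (19.9 to 28.5 TPM and 19.8 to 26.9 TPM). In January DAM4 led by far, DAM5 came next, DAM1 (15.7 to 25.0 TPM) and DAM6 (13.05 to 16.2 TPM) overlapped, and DAM3 and DAM2 came last. Within single libraries the ratio of DAM4 to DAM6 was 1.62 to 1.99 in October, 8.67 to 16.1 in December and 49.6 to 64.3 in January. The ratio of DAM4 to DAM5 was 0.787 to 0.904 in October, 1.27 to 1.91 in December and 6.42 to 8.97 in January. DAM5 and DAM6 kept a steadier ratio in the second interval, 6.83 to 8.45 in December and 5.52 to 8.14 in January, after 1.94 to 2.20 in October. These ratios are given as a description, and how evenly cherry reads match the 6 models was not tested.

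Summed over the 6 models, DAM transcripts made up 863 ± 54.4 TPM in October, 1736 ± 262 TPM in December and 954 ± 82.1 TPM in January (SD, n = 3 each). The January sum (864 to 1026 TPM) overlapped that of October (802 to 908 TPM), although 5 of the 6 genes were lower. The make-up was different. DAM4 held 30.9% of the sum in October, 56.7% in December and 84.6% in January. DAM5 held 36.7%, 35.6% and 10.7% over the same dates, and DAM6 17.8%, 4.78% and 1.54%. DAM1, DAM2 and DAM3 each stayed below 9% in every library.

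**Figure D2:**
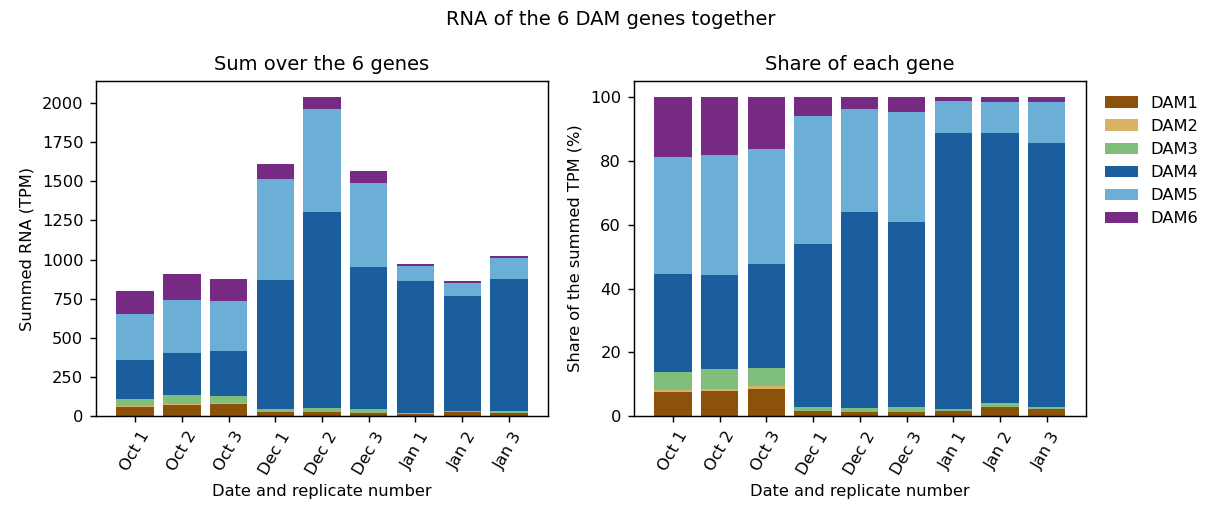
Left, TPM summed over the 6 DAM genes in each of the 9 RNA libraries, and right, the share of each gene in that sum (%), by date and replicate number. The sum was highest in the December libraries (1562 to 2038 TPM), and DAM4 held 82.5% to 86.4% of it in January.

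H3K4me3 was read in the window from 500 bp before to 1500 bp after each gene start, and each of the 6 tabulated regions matched its window exactly. The DAM starts differed in their level of the mark. DAM5 (scaffold 1, 46350243 to 46352243) had the highest signal of the 6 in every library, with 265 and 262 in October, 358 and 333 in December, and 292 and 258 in January. DAM6 (46340762 to 46342762) had 83.8 and 72.2 in October, 95.6 and 79.9 in December, and 59.8 and 64.8 in January. The median over tested regions was 159 to 196 per library, so DAM6 lay below the middle of the marked regions and DAM5 well above it. Between 350 and 2941 recovered reads stood behind each of these 36 values.

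The mark changed at the start of DAM4 (46359453 to 46361453), the gene whose RNA rose and stayed up. Its signal was 169 and 146 in October, 272 and 262 in December, and 243 and 226 in January, with no overlap between dates. On the log2(signal + 1) scale H3K4me3 at DAM4 rose by 0.76 (SE 0.14, adjusted p 0.00398, limma) in December against October and by 0.57 (SE 0.14, adjusted p 0.00903) in January against October. Relative to the median change of all tested regions, which was 0.15 and 0.046, these rises were 0.61 and 0.53. January against December, the change was -0.19, with a 95% interval of -0.48 to 0.10 and an adjusted p of 0.632. Both calls for DAM4 rested on October replicate 3: without it the adjusted p was 0.0617 in December against October and 0.209 in January against October, with changes of 0.65 and 0.47. They were also lost without a filter on low signal (0.0650 and 0.0540).

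At DAM5 the December libraries (358 and 333) lay above the October libraries (265 and 262), but the change of 0.39 (95% interval 0.12 to 0.66) did not pass the test, with an adjusted p of 0.0680 in limma. With library medians aligned it did, at an adjusted p of 0.0420 and a change of 0.25. In January against December the change at DAM5 was -0.33 (95% interval -0.60 to -0.064, adjusted p 0.236), while its RNA changed by -2.58. The January signal (292 and 258) overlapped that of October.

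DAM1 (46396658 to 46398658) had a signal of 256 and 233 in October, 269 and 274 in December, and 238 and 192 in January. In December DAM1 and DAM4 had close levels of the mark, 271 ± 3.38 and 267 ± 6.98 (SD, n = 2 each), while DAM1 had 24.4 ± 4.31 TPM of RNA and DAM4 992 ± 230 TPM (SD, n = 3 each). DAM3 (46369877 to 46371877) had 121 and 130 in October, 145 and 138 in December, and 128 and 106 in January. The means of DAM1, DAM3 and DAM6 were highest in December, but their changes against October, 0.15, 0.18 and 0.17, were close to the median of 0.15 over all tested regions, and were 0.0069, 0.037 and 0.023 with library medians aligned. DAM2 (46387617 to 46389617), whose RNA was at most 1.44 TPM from December on, had 89.1 and 97.0 in October, 82.0 and 77.8 in December, and 60.7 and 77.4 in January. The windows of DAM1 and DAM2 are 2000 bp long and reach beyond these short models, so part of their signal lies outside them.

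**Figure D3:**
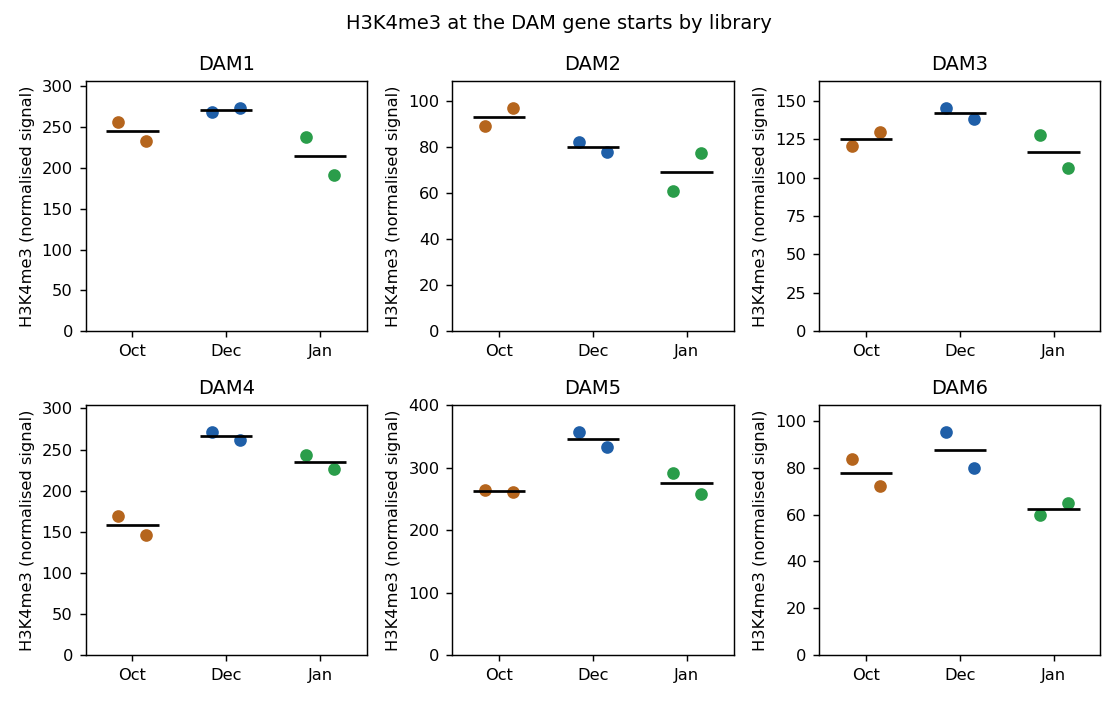
H3K4me3 signal (normalised, vertical axis from 0, scaled per gene) in the window at each DAM gene start in each of the 6 libraries, by date. Points are libraries (2 per date) and bars their mean. DAM4 shows the clearest separation, with 146 and 169 in October and 226 to 272 later.

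For H3K4me3, 1 of the 6 starts (DAM4) was called higher and 0 lower in December against October, where 7.05% of 15360 tested regions were called, 4.5% higher and 2.55% lower. Of all called regions 63.8% were higher, and 51.4% with library medians aligned. DAM5, with DAM4, had an unadjusted p under 0.05, as did 4382 of the 15360 regions. edgeR also called 1 start, against 3034 of all regions, and DESeq2 called 2, against 4546. In January against December limma called 0 of the 6, against 1.73% of all regions (0.436% higher and 1.3% lower, so that 25.2% of calls were higher, and 49.9% with library medians aligned). Unadjusted p-values under 0.05 were obtained for 3 of them (DAM1, DAM5 and DAM6) and for 2011 of all regions. edgeR called 0 of the 6, against 758 of all regions. DESeq2 called 2 (DAM1 and DAM5, both lower), against 2094 of all regions. In that comparison all 6 changes were negative, from -0.48 at DAM6 to -0.19 at DAM4, with a median of -0.31 against -0.11 over all regions. In January against October, where 15.2% of all regions were called, 1 start (DAM4) was higher, against 5.68% of all regions, and 0 were lower, against 9.49%. Of these calls 37.4% were higher, and 51.9% with library medians aligned. DAM4 and DAM2 had an unadjusted p under 0.05 there, as did 4535 of all regions. Of the 6, edgeR called DAM4 alone, against 4983 of all regions. DESeq2 called DAM4 higher and DAM1 lower, where 3085 of all regions were called higher and 3225 lower.

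Set side by side, RNA and H3K4me3 moved by different amounts at most members. At DAM6 the RNA change of -3.30 in January against October came with a change in H3K4me3 of -0.32 (95% interval -0.76 to 0.12). At DAM3 an RNA change of -2.52 came with -0.10 (95% interval -0.45 to 0.25) in the mark, and at DAM1 one of -1.67 came with -0.19 (95% interval -0.49 to 0.10). In the limma fit reported above, DAM4 was the only member at which both assays passed the test in the same direction. With DESeq2 for H3K4me3, DAM5 did so too in December against October (adjusted p 0.0162) and January against December (0.0462). The same held for DAM1 in January against October (adjusted p 0.0161, DESeq2). With library medians aligned, limma also called H3K4me3 higher at DAM5 in December against October (adjusted p 0.0420). That setting called it lower at DAM1 in January against October (adjusted p 0.0407, limma). Both went in the direction of the RNA call, and 3523 and 5567 of all regions were called in these comparisons. Among the 12773 genes joined to exactly 1 region and tested in both assays, 4026 had higher RNA in December than in October, and 492 of these (12.2%) also had a called rise of H3K4me3. Of 3645 genes with lower RNA in January than in October, 942 (25.8%) also had a called loss of the mark. The same limma fit, without aligned medians, gave such a loss for 0 of the 5 DAM genes with lower RNA. RNA had 3 libraries per date and H3K4me3 had 2, so the assays differ in what they can detect.

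**Figure D4:**
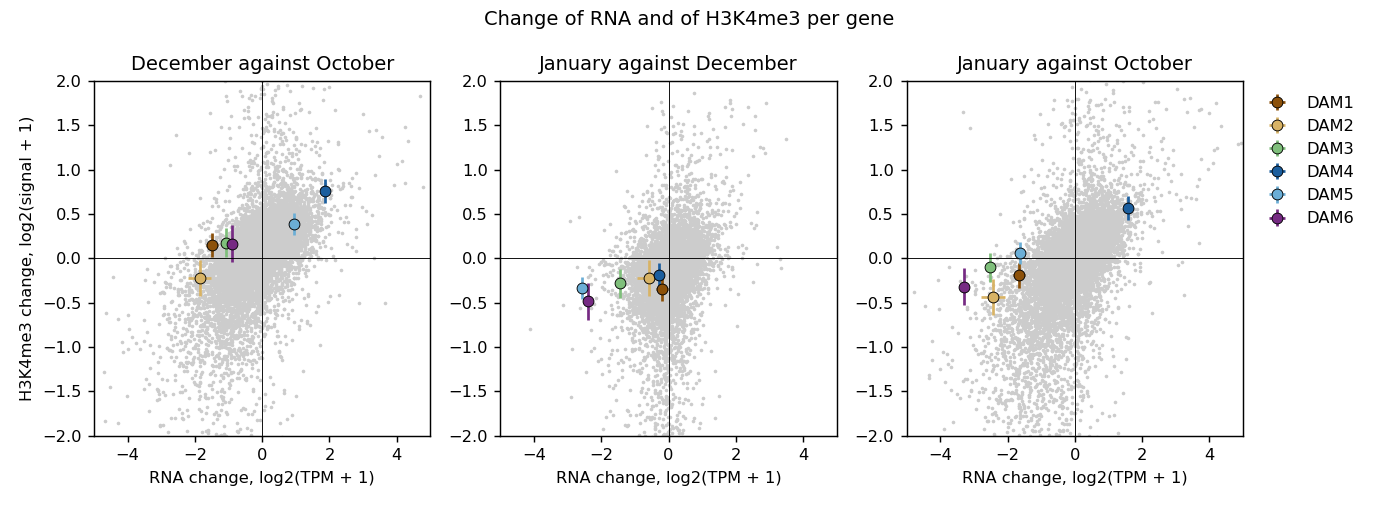
Change in RNA (log2(TPM + 1), horizontal) against change in H3K4me3 at the gene start (log2(signal + 1), vertical) for 12773 genes (grey) and the 6 DAM genes (coloured, bars are standard errors), one panel per comparison. DAM4 lies at 1.87 and 0.76 in December against October, and DAM5 and DAM6 lie at -2.58 and -2.39 on the RNA axis in January against December; 228, 212 and 480 grey points of the 3 panels fall outside the axes.

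Gene models around the row did not share one course. Of the 13 flanking and intervening models, 9 were tested in RNA. In December against October 2 were called higher and 3 lower, where 28.9% of all tested genes were called higher and 31.6% lower. In January against December 1 was higher and 3 lower, against 18.5% and 14.5% of all genes. In January against October 3 were higher and 4 lower, against 31.7% and 29.4%. With calls this frequent among all genes, these counts say little about the neighbourhood. Their median change was -0.050, -0.19 and -0.23 in these comparisons, against -0.029, 0.025 and 0.030 over all tested genes. Next to DAM6, PRUPE_ppa004255mg had 21.3 ± 2.06 TPM in October, 24.3 ± 2.52 TPM in December and 18.03 ± 1.40 TPM in January (SD, n = 3 each). It changed by 0.18 (adjusted p 0.204, limma) in December against October and by -0.41 (adjusted p 0.0216) in January against December, the interval in which DAM5 and DAM6 fell. Next to DAM1, PRUPE_ppa007175mg had 67.1 ± 1.44, 38.3 ± 4.91 and 41.5 ± 3.26 TPM over the same dates, a change of -0.80 (adjusted p 5.26e-05, limma) in December against October and of 0.12 (adjusted p 0.388) in January against December, with H3K4me3 changes of 0.27 and -0.078 (adjusted p 0.201 and 0.882). At the 7 neighbouring starts tested for H3K4me3 the lowest adjusted p was 0.108 in December against October.

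Over the whole period 1 model inside the row had a larger fall than any DAM gene, a change of -4.73 on the log2(TPM + 1) scale against -3.30 for DAM6, a difference that was not tested. PRUPE_ppa017809mg (scaffold 1, 46391409 to 46393852), between DAM2 and DAM1, had 122, 87.3 and 98.9 TPM in October, 24.5, 21.7 and 19.9 TPM in December, and 3.74, 3.04 and 2.02 TPM in January, with no overlap between dates. It changed by -2.16 (adjusted p 3.67e-06, limma) in December against October and by -2.57 (adjusted p 5.67e-06) in January against December. The H3K4me3 region at 46392352 to 46395452, which overlaps the upper end of this model and also covers PRUPE_ppa014130mg (46393951 to 46394913), held a signal of only 5.78 to 12.4 in the 6 libraries. The tables give this model no name. Whether it belongs to one of the short DAM models on either side of it could not be checked in the sources used here. Its reads are not counted in the DAM1 and DAM2 levels or in the family sum and shares above, which would differ if it did. PRUPE_ppa024315mg, between DAM3 and DAM2, was listed at 0 TPM in all 9 libraries, and its region had a signal of 0.154 to 0.566.

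**Figure D5:**
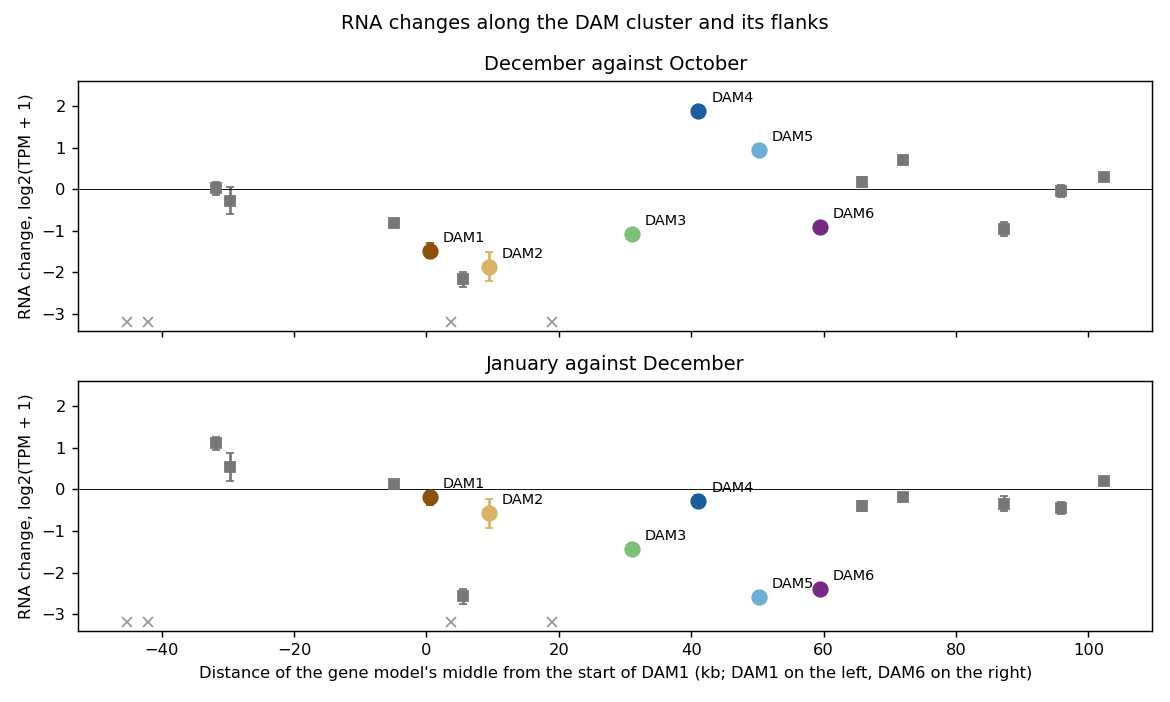
RNA change (log2(TPM + 1), bars are standard errors) of the 6 DAM genes (circles) and of 13 flanking and intervening gene models (grey squares, or crosses at the lower edge where too low to test), by distance in kb from the start of DAM1. DAM4 and DAM5 rose in December next to DAM3 and DAM6, which fell, and PRUPE_ppa017809mg beside DAM1 has the lowest grey square in both panels.

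The genes whose RNA followed each DAM gene most closely were found among 15543 genes of at least 5 TPM, by Pearson correlation of log2(TPM + 1) over the 9 RNA libraries. The libraries fall into 3 dates, so a high correlation shows mainly that the date means run alike, and it is given as a description. For DAM4 the closest were PRUPE_ppa006570mg (r = 0.993), PRUPE_ppa013852mg (0.992) and PRUPE_ppa005720mg (0.989). PRUPE_ppa006570mg averaged 21.9 TPM in October, 64.5 TPM in December and 57.6 TPM in January. DAM5 was followed by PRUPE_ppa016319mg (r = 0.992), which averaged 15.8, 47.5 and 1.16 TPM over the dates, then by PRUPE_ppa008485mg (0.988) and PRUPE_ppb004684mg (0.985). For DAM6 they were PRUPE_ppa004380mg, PRUPE_ppa004334mg and PRUPE_ppa005187mg (r = 0.998, 0.998 and 0.997), the first of which averaged 36.6, 22.3 and 6.22 TPM. The closest to DAM3 were PRUPE_ppa004037mg (r = 0.997), PRUPE_ppa001754mg and PRUPE_ppa002367mg (0.995 each). DAM1 was closest to PRUPE_ppa002951mg (0.994), PRUPE_ppa024217mg (0.992) and PRUPE_ppa006352mg (0.989), and DAM2 to PRUPE_ppa017819m3g (0.983), PRUPE_ppa016096mg (0.981) and PRUPE_ppa002539mg (0.981). No DAM gene was among the 3 closest of another. DAM1 stood at place 72 for DAM2, with r = 0.950, and DAM6 at place 119 for DAM3, with r = 0.9745. DAM4 stood at place 6920 for DAM5, with r = 0.00041. With DAM1, DAM2, DAM3 and DAM6 the r of DAM4 was negative (-0.898, -0.840, -0.733 and -0.601).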

How the data were processed

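For RNA the authors deposited TPM, with a sum of 1000000 in each library, and for H3K4me3 they deposited a signal per region that the file headers call TMM. Per the submitters' processing notes, RNA reads went through TopHat and Picard, and H3K4me3 reads through FastQC, Trimmomatic, Bowtie2, Picard and DiffBind. No source used here names the genome build or versions, or says whether a control was subtracted. Every H3K4me3 value (100%, within 0.01) was a whole multiple of one step per library, and these multiples are called recovered reads. The lowest value of each library was taken as 1 read. Between 25.9% and 32.8% of regions per library stood at it, and whether it is a floor was not tested.

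RNA was fitted with limma 3.58.1 (R 4.3.3, intensity trend, date as the only factor) on log2(TPM + 1), keeping a gene if 3 or more of the 9 libraries reached 1 TPM. H3K4me3 was fitted likewise on log2(signal + 1), keeping a region if 2 or more of the 6 libraries reached a signal of 10. Such log2 changes understate those of low genes. Tests were two-sided, with Benjamini-Hochberg adjustment over all features and a threshold of 0.05. edgeR 4.0.16 (TMM, quasi-likelihood) and DESeq2 1.42.0 on the recovered reads were alternatives. In the order December against October, January against December and January against October, edgeR called 3034, 758 and 4983 regions and DESeq2 4546, 2094 and 6310. Scripts were tested on simulated data.

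The members, lists and tests were chosen with earlier results of these data known. Named items are the 6 models, the 5 nearest PRUPE models on each side, the 3 inside the row (added after their values were seen), and the 3 closest genes per member. Of the 29449 identifiers 0 were found among the 37283 sweet cherry genes in RefSeq, so other pathway genes and tissue markers could not be listed, and no sequences are shown. The 6 H3 and 6 input libraries were not analysed here.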

Additional observations from a re-analysis of the deposited data

How the results depend on the processing

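Under 15 alternatives per comparison, 6, 3 and 6 DAM genes were called in RNA in December against October, January against December and January against October, except that 4 were called in January against December without January replicate 2, where DAM2 passed (adjusted p 0.0340, limma). Of 270 single RNA values under alternatives, 268 kept direction and call, and DAM1 in January against December turned to 0.0038 without January replicate 1, within a range of -0.33 to 0.0038 over single libraries left out. Under some alternatives the log2 change is by construction that of the fit reported above, so only the call could differ. These are no filter on low values, the 2 dates compared alone, a replicate block, and leaving out a library of the date not compared. For H3K4me3, where 1, 0 and 1 DAM starts were called, 232 of 252 values kept both. The same settings fix the log2 change here too. The alternative that sets a lowest overlap of region and window repeats the fit reported above, because each of the 6 regions matched its window exactly. Its values could therefore not differ. Without a filter on low signal 0 starts were called in December against October and 0 in January against October, with 2 at an unadjusted p under 0.05 in each. Of the 25635 regions then tested, 4188 and 4472 had such a p. With library medians aligned 2 were called in each of these. They were DAM4 and DAM5, both higher, in December against October, and DAM4 higher and DAM1 lower in January against October. DESeq2 called 2 in every comparison, and the 2 dates compared alone gave 2 in December against October. The latter setting called 5411 of all regions. Leaving out single H3K4me3 libraries gave 0 to 2 in every comparison, and where a date keeps 1 library it is assumed to vary like the others. Without January replicate 2, which leaves 1 library for January, DAM1 and DAM5 changed by -0.50 and -0.42 in January against December. Tested regions as a whole also shifted downwards in that fit, by -0.24 at the median, so part of these falls is shared. Signs turned for values near 0 that were not called: DAM1 in December against October with DESeq2 (-0.0042), and, in January against October, DAM5 without January replicate 2 (-0.029, range to 0.15) and DAM3 without January replicate 3 (0.030, range from -0.23). Counts over all regions were 1083, 266 and 2330, and ran over alternatives from 71 to 5502, from 0 (no filter on low signal, with 1985 at an unadjusted p under 0.05) to 3809, and from 741 to 6310. With library medians aligned they were 3523, 901 and 5567. The cause was not tested. Over all genes the RNA counts moved by less than 1.5 times (10090 to 11405, 4847 to 6443 and 10123 to 11653). Deviations of same-numbered libraries correlated at 0.53 in H3K4me3 of October and December, and at -0.068 and -0.10 in the other H3K4me3 comparisons. Across the RNA dates the correlations were -0.086 to 0.11. With 2 H3K4me3 libraries per date, differently numbered libraries have the same value with the opposite sign by construction. These H3K4me3 values therefore cannot show whether the numbers are pairs, and the fits reported above did not pair them. With a replicate block 6, 3 and 6 DAM genes were called in RNA and 1, 0 and 1 starts in H3K4me3, and the regions called in January against December were 542.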
